A study of Mus musculus with 9 samples.

Results

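Lysosomal proteins and the proton pump were represented by 34 genes, chosen by name as proteins of the lysosomal membrane, soluble enzymes of the lumen, subunits of the vacuolar ATPase and the transcription factor Tfeb. These genes, and the lists of other genes below, were chosen with earlier results of these data known. Counts of them therefore describe the chosen genes and are not an independent test. All 34 were measured, among 18193 genes named on the arrays, and 24 of them had more than 1 probe set. Expression was measured on 9 Affymetrix mouse arrays of bone marrow-derived macrophages (BMDMs), which are macrophages grown from marrow progenitors in M-CSF, here for 7 days from BALB/c mice aged 8 to 10 weeks and then overnight in 1% serum. In TNC + TLR4i (3 arrays), cells were held for 1 h in 3 µM TAK-242, a small molecule that blocks Toll-like receptor 4 (TLR4), before tenascin-C (TNC), a matrix glycoprotein, was added at 2 µg/ml for 6 h. In TNC + vehicle (3 arrays), 0.1% DMSO stood in place of TAK-242 before the same TNC treatment, and the untreated group (3 arrays) had neither agent named in its labels. No group carried vehicle alone or inhibitor alone, so TNC and DMSO cannot be told apart in the comparison of TNC + vehicle with untreated cells, and the inhibitor's own effect cannot be told apart from what was left of TNC's in the comparison of TNC + TLR4i with untreated cells. In the comparison of TNC + TLR4i with TNC + vehicle, the inhibitor's own effect cannot be told apart from a block of TNC's. The labels call the replicates biological without saying that they came from separate mice, so p-values measure only the spread between these samples, which may be technical.

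Lysosomes are the acidic compartments in which macrophages degrade what they take up and what autophagy delivers. Their hydrolases work only at low pH, which the vacuolar ATPase (V-ATPase) maintains by pumping protons across the membrane at the cost of ATP. Many lysosomal genes carry the element CACGTG near their start sites, a core sequence bound by TFEB and its relatives of the MiT-TFE family. The kinase complex mTORC1, recruited to the lysosomal surface by Rag GTPases, holds TFEB in the cytoplasm when nutrients are plentiful.

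Values are log2 RMA signals, so a difference of 1 is a doubling, and each gene is given by its brightest probe set. A gene is said to have risen or fallen where the adjusted p of the comparison was under 0.05. In the accounts of single genes, "with the inhibitor" stands for TNC + TLR4i against TNC + vehicle, and where a gene is given a pair of differences with no groups, the first is TNC + vehicle against untreated and the second TNC + TLR4i against TNC + vehicle. Array medians lay between 6.72 and 6.74. The macrophage markers Csf1r and Lyz2 gave signals near the top of the scale, Csf1r between 14.07 and 14.20 and Lyz2 between 14.53 and 14.57 over the 9 arrays. The linear signals of 9 macrophage markers summed to 73727 to 75664 in TNC + TLR4i arrays, 82713 to 87124 in TNC + vehicle arrays and 78272 to 78578 in untreated arrays, with 3 of the 9 risen and 1 fallen in TNC + vehicle against untreated. Replicate 1 of TNC + vehicle stood apart from its group, since 11 of 12 endothelial markers were higher in it than in the mean of the other 2 arrays. The 12 summed to 1350 to 1401 in TNC + TLR4i arrays, 1902 to 2406 in TNC + vehicle arrays and 1378 to 1441 in untreated arrays, and RMA gives no value of 0 for any of them. Without Kdr, which was high in all 3 TNC + vehicle arrays, the other 11 summed to 1168 to 1223 in TNC + TLR4i arrays, 1894 in replicate 1 and 1178 and 1134 in replicates 2 and 3 of TNC + vehicle, and 1181 to 1218 in untreated arrays. Sums of 8 fibroblast markers, to which Col1a2 and Col3a1 gave the most, overlapped. They were 13981 to 16986 in TNC + TLR4i, 14194 to 16329 in TNC + vehicle and 15473 to 18139 in untreated arrays. Taken singly, all 8 other than Pdgfra were higher in replicate 1 of TNC + vehicle than in its replicates 2 and 3. Pdgfrb, for example, was 9.81 there beside 9.46 and 9.03, and Pdgfra 8.44 beside 8.62 and 8.36. Of the 34 members, 30 were also higher in replicate 1 of TNC + vehicle than in the mean of the other 2, and the median over the 34 was 0.09. Counts of members without that replicate stand beside the main counts, and the part of these other cells in single results was not tested. The 3′ minus 5′ signal of the actin control was 0.30 to 0.37 in TNC + TLR4i, 0.21 to 0.22 in TNC + vehicle and 0.29 to 0.32 in untreated arrays, and that of the Gapdh control was -0.32 to -0.26 in TNC + TLR4i, -0.33 to -0.30 in TNC + vehicle and -0.35 to -0.33 in untreated arrays. The part of these signals was not tested either.

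In TNC + vehicle against untreated, 17 of the 34 members fell, 2 rose and 15 did not pass the test. Over all genes 16% fell and 12.1% rose, 28.1% in all. The median difference of the members was -0.20, beside 0.01 over all genes. The arrays of the 2 groups did not overlap for 25 members, 21 lower and 4 higher in TNC + vehicle, where 22.6% of all genes were lower and 19.7% higher in this way, 42.3% in all. At a change of at least 1.5-fold, 3 members fell (Atp6v0d2, Npc1 and Atp6v1a) and 0 rose, beside 4.05% and 3.74% of all genes, 7.78% in all. Without replicate 1 of TNC + vehicle the counts were again 17 fallen and 2 risen. In these bulk samples, fewer cells that express a gene and less RNA of it per cell cannot be told apart.

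In TNC + TLR4i against TNC + vehicle, 18 members rose, 2 fell and 14 did not pass, beside 17.1% and 11.4% of all genes, 28.5% in all. The median difference was 0.25, beside 0.00 over all genes, and 0.16, beside -0.01, after cyclic loess normalization between arrays. Groups did not overlap for 22 members that were higher and 3 that were lower with the inhibitor, against 23.8% and 18.4% of all genes, 42.2% in all. At 1.5-fold or more, 5 rose (Atp6v0d2, Npc1, Lipa, Atp6v1a and Lgmn) and 1 fell (Ctsc), beside 4.25% and 4.05% of all genes, 8.3% in all. Without replicate 1 of TNC + vehicle, 19 rose and 2 fell. The shares of all genes in this and the preceding paragraph are also the background for counts within the role groups and lists below.

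In TNC + TLR4i against untreated, Lipa alone of the 34 rose and 0 fell, beside 0.297% and 0.506% of all genes, 0.803% in all (limma, adjusted p). At an unadjusted p under 0.05, 2 members (5.88%) were higher and 0 lower, beside 4.83% and 4.63% of all genes. No member passed at 1.5-fold or more, which 0.0605% of all genes did upwards and 0.198% downwards, 0.258% in all. Groups did not overlap for 7 members that were higher and 1 that was lower in TNC + TLR4i, beside 8.61% and 6.56% of all genes, 15.2% in all. The median was 0.03, beside 0.01 over all genes, and the differences of the 34 ran from -0.11 to 0.42. Each pair of the 3 comparisons shares the arrays of 1 group, so a member's differences in them are not independent. The 2 members that rose in TNC + vehicle against untreated, and the 2 that fell in TNC + TLR4i against TNC + vehicle, were Ctsc and Atp6v1h. In none of the comparisons did 13 members pass.

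**Figure D1:**
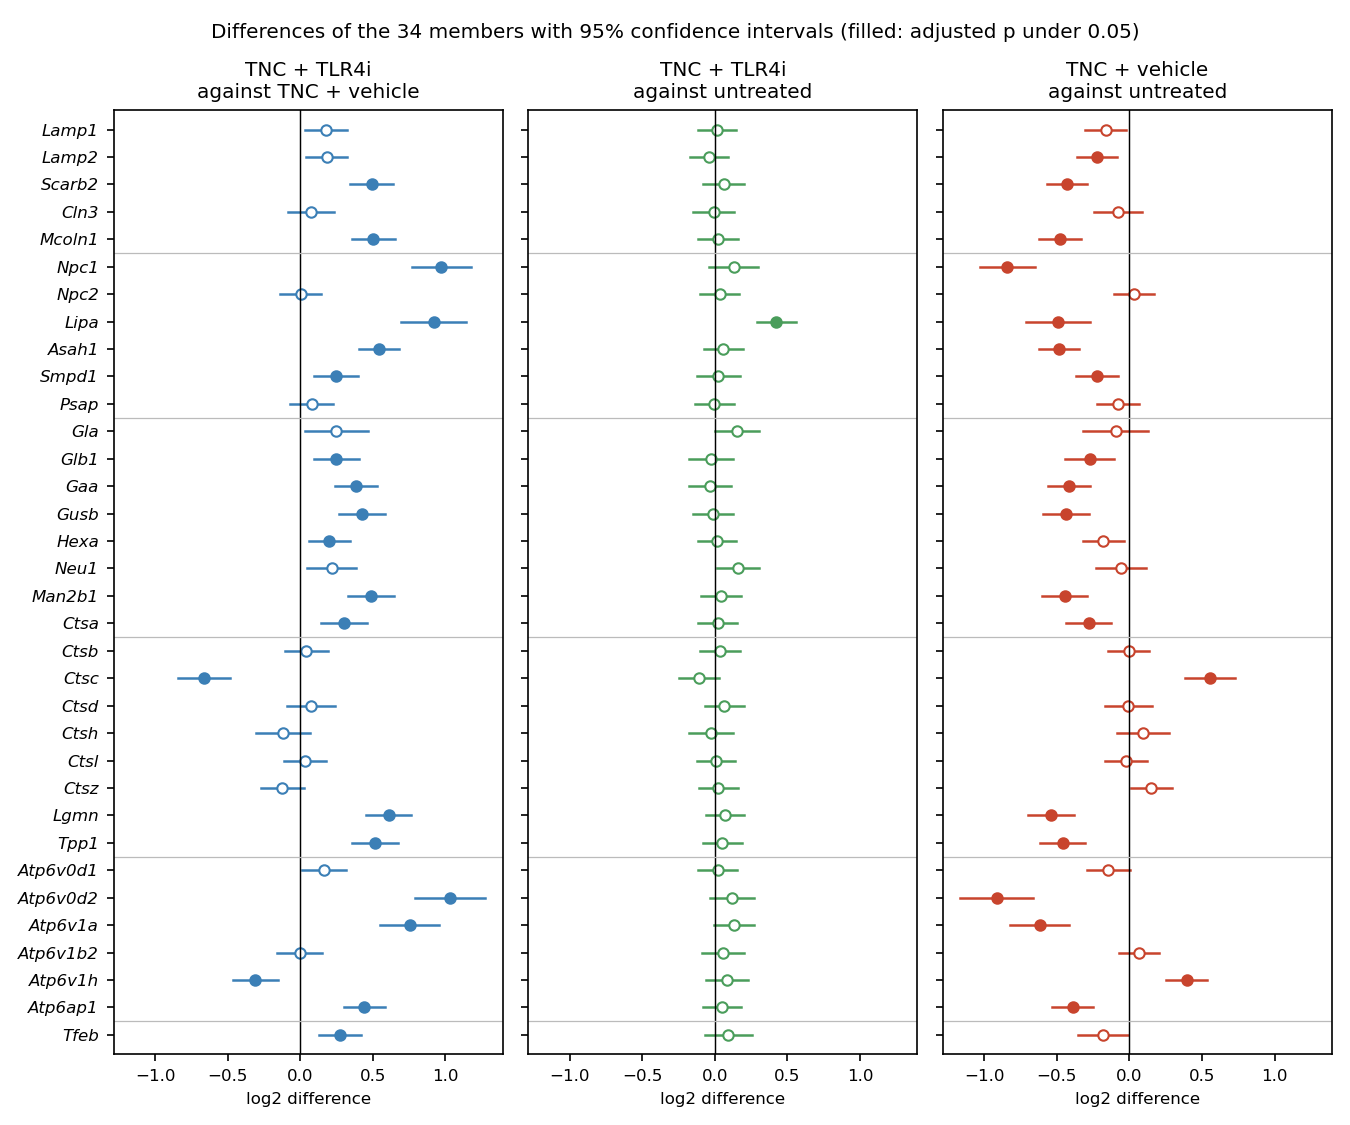
Differences on the log2 scale (horizontal axis) of the 34 members, grouped from top to bottom as membrane proteins, cholesterol and lipid handling, glycosidases, proteases, V-ATPase and Tfeb, in the 3 comparisons. Points are differences of group means of 3 arrays each, lines are 95% confidence intervals from limma, and filled points had an adjusted p under 0.05: 18 rose and 2 fell in the left panel, 1 rose in the middle panel, and 2 rose and 17 fell in the right panel.

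The start sites of the members were examined for CACGTG, a palindrome, so that reading one strand covers both. RefSeq promoters of assembly GRCm38.p6, from 250 bases before to 50 bases after the start, were matched by symbol for 27 members, the others being Npc1, Asah1, Ctsb, Ctsh, Atp6v0d2, Atp6v1b2 and Atp6v1h. CACGTG lay in a promoter of 12 of the 27 (44.4%), beside 8.09% of the 27025 genes of the table. Of the 14453 genes named on the arrays, 10.2% had it. In the lists of other genes below, it lay in 2 of 19 membrane proteins and transporters (10.5%), 1 of 7 cathepsins and cystatins (14.3%) and 2 of 12 V-ATPase subunits (16.7%). It lay in 4 of 19 hydrolases and cofactors (21.1%), 6 of 19 genes of the MiT-TFE and mTORC1 list (31.6%) and 5 of 11 sorting genes (45.5%). The longer palindrome TCACGTGA, which holds CACGTG, lay in 7 of the 27 (25.9%), beside 1.12% of all genes of the table and 1.63% of those named on the arrays. Members that fell in TNC + vehicle against untreated had CACGTG in 6 of 14 cases, and members that did not pass in 6 of 12. A match is a description of the letters and not a site shown to be bound. The promoters of 5 members are shown as the 150 bases before the start site, 5′ to 3′ on the strand of the gene, with CACGTG in capitals: Mcoln1 (chr8:3500369-3500518, plus strand), Atp6v1a (chr16:44139260-44139409, minus strand) and Lipa (chr19:34527475-34527624, minus strand), which fell in TNC + vehicle, Lamp1 (chr8:13159011-13159160, plus strand), which did not pass, and Ctsc (chr7:88277935-88278084, plus strand), which rose.
Mcoln1: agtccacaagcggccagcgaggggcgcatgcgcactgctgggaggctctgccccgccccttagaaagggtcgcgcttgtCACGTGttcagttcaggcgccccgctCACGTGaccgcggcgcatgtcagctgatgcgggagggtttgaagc
Atp6v1a: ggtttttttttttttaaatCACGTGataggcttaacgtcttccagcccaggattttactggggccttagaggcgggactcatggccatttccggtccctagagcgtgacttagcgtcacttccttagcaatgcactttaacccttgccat
Lipa: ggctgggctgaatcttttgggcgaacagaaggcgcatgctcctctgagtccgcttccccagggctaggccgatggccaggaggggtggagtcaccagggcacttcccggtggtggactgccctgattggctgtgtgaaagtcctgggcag
Lamp1: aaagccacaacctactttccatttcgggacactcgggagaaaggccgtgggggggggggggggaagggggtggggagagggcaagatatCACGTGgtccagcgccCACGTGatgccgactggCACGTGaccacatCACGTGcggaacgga
Ctsc: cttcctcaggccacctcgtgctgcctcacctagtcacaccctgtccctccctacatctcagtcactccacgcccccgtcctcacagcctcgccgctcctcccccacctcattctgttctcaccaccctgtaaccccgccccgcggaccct
The Mcoln1 elements began 71 and 45 bases before the start and that of Atp6v1a 131 bases before it. Lamp1 had the most, 4, beginning 61, 45, 28 and 15 bases before the start, while Lipa and Ctsc had 0 in the whole window. There were 6 members with 2 or more in a promoter, namely Lamp1, Cln3, Mcoln1, Gla, Ctsa and Ctsd, and of these Mcoln1 and Ctsa fell in TNC + vehicle while the others did not pass.

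Of the members that handle cholesterol and lipids, 4 of 6 fell in TNC + vehicle and the same 4 rose with the inhibitor. Npc1, the membrane protein that exports cholesterol from the lysosome, had signals of 9.57, 9.84 and 9.73 in TNC + TLR4i arrays, 8.93, 8.63 and 8.68 in TNC + vehicle arrays and 9.65, 9.60 and 9.504 in untreated arrays. All 3 TNC + vehicle arrays lay below every other array, and the other 2 groups overlapped. Npc1 was 1.79-fold lower in TNC + vehicle than in untreated cells, a difference of -0.84 (SE 0.086, adjusted p = 1.97e-05), and 1.96-fold higher in TNC + TLR4i than in TNC + vehicle, 0.97 (SE 0.094, adjusted p = 8.96e-06). Its soluble partner Npc2, which hands cholesterol to it, differed by 0.03 and 0.00 in the same comparisons, with adjusted p of 0.801 and 0.987. Of its 3 other probe sets, 1 with a mean signal of 6.67 differed in its calls, rising by 0.38 in TNC + vehicle and falling by 0.36 with the inhibitor.

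Lipa, the acid lipase that frees cholesterol from its esters, had signals of 12.96, 13.04 and 13.04 in TNC + TLR4i arrays, 12.35, 11.90 and 12.03 in TNC + vehicle arrays and 12.57, 12.62 and 12.57 in untreated arrays. The 3 groups did not overlap, with TNC + TLR4i highest and TNC + vehicle lowest. TNC + vehicle differed from untreated by -0.49 (SE 0.10, adjusted p = 0.00369) and TNC + TLR4i from TNC + vehicle by 0.92 (SE 0.10, adjusted p = 3.03e-05). Lipa, alone of the members, also passed in TNC + TLR4i against untreated, being higher in TNC + TLR4i, by 1.34-fold or 0.42 (SE 0.062, adjusted p = 0.00837), with a 95% interval of 0.29 to 0.56. Its other 2 probe sets passed in that comparison as well, at 0.53 and 0.49 with adjusted p of 0.0028 and 0.0039. The call was lost without replicate 3 of TNC + TLR4i, when the difference was 0.41 with an adjusted p of 0.0528, and it was also lost in 1 fit over all 9 arrays (adjusted p 0.0799).

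Asah1, acid ceramidase, had 12.30, 12.29 and 12.26 in TNC + TLR4i arrays, 11.77, 11.72 and 11.73 in TNC + vehicle arrays and 12.27, 12.20 and 12.20 in untreated arrays. The TNC + vehicle arrays were the lowest, at -0.48 (SE 0.063, adjusted p = 0.000146) against untreated and 0.54 (SE 0.064, adjusted p = 4.97e-05) the other way with the inhibitor. Smpd1, acid sphingomyelinase, moved least of the 4, at -0.22 and 0.25, with adjusted p of 0.0284 and 0.0218. The fall of Smpd1 was lost without replicate 2 or 3 of TNC + vehicle or replicate 1 or 2 of untreated (adjusted p 0.0704 to 0.117), and its rise without replicate 1 or 3 of TNC + TLR4i or replicate 2 or 3 of TNC + vehicle (0.0552 to 0.0984). The rise was also lost with the mean over the probe sets of Smpd1, at 0.13 (adjusted p 0.136). Psap, the precursor of the saposins that present lipids to the hydrolases, lay at 13.86 to 14.01 over all arrays, and did not pass.

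**Figure D2:**
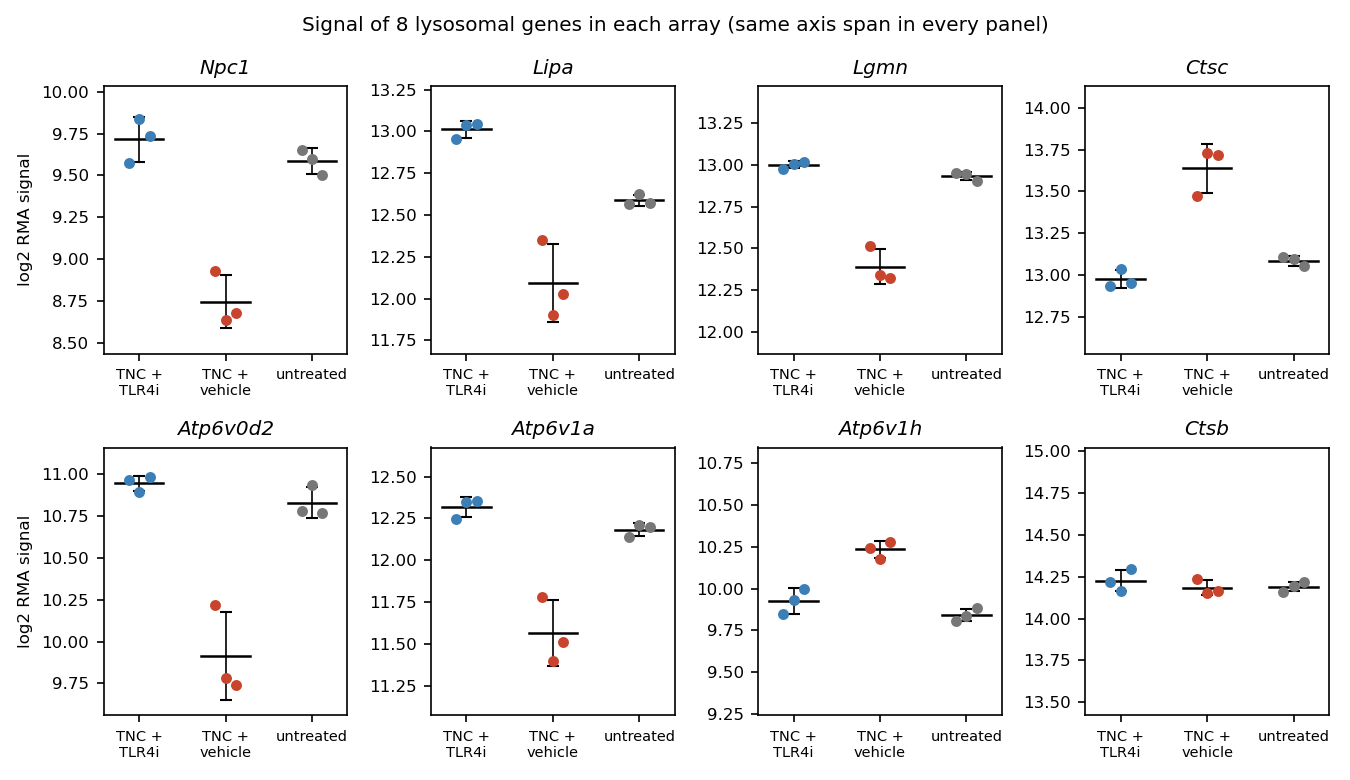
Log2 RMA signal (vertical axis, spanning the same range of 1.6 in every panel) of 8 members in each array, with TNC + TLR4i left, TNC + vehicle in the middle and untreated right. Points are arrays, long bars are means and error bars are SDs of 3 arrays. Npc1, Lipa, Lgmn, Atp6v0d2 and Atp6v1a are lowest in the 3 TNC + vehicle arrays, Ctsc and Atp6v1h are highest there, and Ctsb overlaps in all groups.

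Of the 6 V-ATPase members, 3 fell and 1 rose in TNC + vehicle, and the same 3 rose and the same 1 fell with the inhibitor. Atp6v0d2, an isoform of the d subunit of the membrane sector that is prominent in osteoclasts and macrophages, had the largest difference of the 34, with signals of 10.96, 10.89 and 10.98 in TNC + TLR4i arrays, 10.22, 9.78 and 9.74 in TNC + vehicle arrays and 10.78, 10.94 and 10.77 in untreated arrays. TNC + vehicle lay below both other groups without overlap, and these 2 overlapped. The difference was -0.92 (SE 0.11, adjusted p = 9.86e-05) against untreated, which is 1.89-fold lower, and 1.03 (SE 0.11, adjusted p = 2.14e-05) for TNC + TLR4i against TNC + vehicle, 2.05-fold higher. Atp6v0d1, the broadly expressed isoform of the same subunit, did not pass in either comparison, at -0.15 and 0.16 with adjusted p of 0.163 and 0.117. The difference between the isoforms was not tested. The linear signals of 8 osteoclast markers summed to 1888 to 1903 in TNC + TLR4i, 1837 to 2086 in TNC + vehicle and 1964 to 2024 in untreated arrays. In TNC + vehicle against untreated, 2 of the 8 rose (Mmp9 and Car2) and 1 fell (Nfatc1), with 7 of the 8 differences positive. The part of these markers in the Atp6v0d2 difference was not tested.

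Atp6v1a, the catalytic subunit that hydrolyses ATP and whose promoter is printed above, had 12.25, 12.35 and 12.35 in TNC + TLR4i arrays, 11.78, 11.40 and 11.51 in TNC + vehicle arrays and 12.14, 12.21 and 12.20 in untreated arrays. TNC + vehicle was again the lowest group without overlap, 1.54-fold below untreated at -0.62 (SE 0.092, adjusted p = 0.000392), and TNC + TLR4i was 1.69-fold above it at 0.75 (SE 0.094, adjusted p = 7.77e-05). Atp6ap1, an accessory protein that helps to assemble and guide the pump, had 12.56, 12.55 and 12.55 in TNC + TLR4i arrays, 12.17, 12.11 and 12.06 in TNC + vehicle arrays and 12.50, 12.54 and 12.48 in untreated arrays. Its differences were -0.39 (SE 0.065, adjusted p = 0.000861) and 0.44 (SE 0.065, adjusted p = 0.000307). Atp6v1h, which links the catalytic sector to the membrane sector and regulates ATP hydrolysis, went the other way, with 9.85, 9.93 and 10.00 in TNC + TLR4i arrays, 10.25, 10.18 and 10.28 in TNC + vehicle arrays and 9.81, 9.83 and 9.88 in untreated arrays. It was highest in TNC + vehicle without overlap, at 0.39 (SE 0.065, adjusted p = 0.000865) against untreated and -0.31 (SE 0.070, adjusted p = 0.00628) for TNC + TLR4i against TNC + vehicle. The Atp6v1h calls rested on its brightest probe set. The other 2, with means of 5.70 and 6.52, did not pass, and the mean over the 3 gave 0.11 with an adjusted p of 0.119 against untreated. Atp6v1b2, the B2 subunit that shares the nucleotide sites with Atp6v1a, did not pass, at 0.06 and -0.01.

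The other subunits of the pump were counted from a list of 15 genes, 14 of them measured. In TNC + vehicle against untreated 5 fell and 2 rose, and in TNC + TLR4i against TNC + vehicle 8 rose and 2 fell, a count of rises that was 4 without replicate 1 or 3 of TNC + TLR4i, 5 without replicate 2 of TNC + TLR4i or replicate 2 or 3 of TNC + vehicle, and 8 without replicate 1 of TNC + vehicle. The largest differences were in isoforms of the membrane-embedded a subunit, with Atp6v0a2 up by 0.81 and Atp6v0a1 at -0.48 in TNC + vehicle against untreated. With the inhibitor they differed by -0.80 and 0.56, each passing. Atp6v0a2 averaged 8.09 ± 0.050 in TNC + TLR4i arrays, 8.88 ± 0.091 in TNC + vehicle arrays and 8.07 ± 0.083 in untreated arrays (SD, n = 3 each). Atp6v1c1 and Atp6v1d, of the stalk that joins both sectors, fell by 0.45 and 0.39 in TNC + vehicle. The calls of Atp6v0a1 and Atp6v1d against untreated were lost with the mean over each gene's probe sets, with adjusted p of 0.0701 and 0.0855.

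Of the 8 proteases, 2 fell, 1 rose and 5 did not pass in TNC + vehicle, and 2 rose and 1 fell with the inhibitor. In these 2 comparisons 37.5% of them passed, beside 28.1% and 28.5% of all genes. Their median differences were -0.01 and 0.04, beside 0.01 and 0.00 over all genes. Lgmn, the asparaginyl endopeptidase that cleaves and matures cathepsins, had 12.98, 13.002 and 13.02 in TNC + TLR4i arrays, 12.51, 12.34 and 12.32 in TNC + vehicle arrays and 12.95, 12.95 and 12.90 in untreated arrays. TNC + vehicle lay lowest without overlap, at -0.54 (SE 0.071, adjusted p = 0.000158) against untreated, and TNC + TLR4i was 1.52-fold higher than TNC + vehicle, at 0.61 (SE 0.072, adjusted p = 5.37e-05). Tpp1, which removes tripeptides from protein ends, had 12.27, 12.28 and 12.28 in TNC + TLR4i arrays, 11.87, 11.66 and 11.76 in TNC + vehicle arrays and 12.23, 12.19 and 12.25 in untreated arrays. It differed by -0.46 (SE 0.072, adjusted p = 0.000545) and 0.51 (SE 0.072, adjusted p = 0.0002), and its dimmer probe set by -0.74 and 0.72.

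Ctsc, the dipeptidyl peptidase that activates granule serine proteases, was the member that rose most, with 12.93, 13.03 and 12.95 in TNC + TLR4i arrays, 13.47, 13.73 and 13.72 in TNC + vehicle arrays and 13.11, 13.09 and 13.05 in untreated arrays. TNC + vehicle was the highest group and TNC + TLR4i the lowest, with no overlap between any of the 3. Against untreated, TNC + vehicle was 1.47-fold higher, 0.55 (SE 0.080, adjusted p = 0.000308), and TNC + TLR4i was 1.59-fold lower than TNC + vehicle, -0.67 (SE 0.082, adjusted p = 7.11e-05). TNC + TLR4i against untreated gave -0.11 with an adjusted p of 0.711. All 3 of its probe sets rose in TNC + vehicle, by 0.47 to 0.67.

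The cysteine cathepsins Ctsb, Ctsh, Ctsl and Ctsz and the aspartic protease Ctsd did not pass in any comparison. Ctsb had 14.22, 14.17 and 14.29 in TNC + TLR4i arrays, 14.24, 14.15 and 14.17 in TNC + vehicle arrays and 14.16, 14.20 and 14.22 in untreated arrays, and the groups overlapped throughout. Ctsh lay at 10.33 to 10.70 over all arrays, and Ctsl and Ctsd at 13.68 to 13.96. Ctsz lay above untreated in all 3 TNC + vehicle arrays, but at 0.15 its adjusted p was 0.131. Other probe sets differed in their calls. For Ctsz, 2 dimmer ones rose by 0.35 and 0.36 in TNC + vehicle (adjusted p 0.0014 each) and fell with the inhibitor, while for Ctsb 1 of 4 others fell in TNC + vehicle, by 0.32 (adjusted p 0.0133), and 2 rose with the inhibitor, by 0.33 and 0.37 (adjusted p 0.0117 and 0.0041). With the mean over its probe sets, Ctsb rose by 0.16 with the inhibitor (adjusted p 0.0498). By the same measure Ctsz rose by 0.29 in TNC + vehicle (adjusted p 0.0013) and fell by 0.27 with the inhibitor (adjusted p 0.0029). The brightest Ctsz probe set also passed after cyclic loess (adjusted p 0.0129 and 0.0226) and with a trended and robust prior (0.0069 and 0.0292).

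Among 10 other cathepsins and cystatins, 2 fell and 1 rose in TNC + vehicle, and 2 rose and 1 fell with the inhibitor, shares close to the 28.1% and 28.5% of all genes that passed. Without replicate 1 of TNC + vehicle 3 fell in TNC + vehicle against untreated. The gene that rose was Cst7, cystatin F, an inhibitor of cysteine cathepsins, which averaged 6.48 ± 0.11 in TNC + TLR4i arrays, 7.42 ± 0.054 in TNC + vehicle arrays and 6.47 ± 0.050 in untreated arrays (SD, n = 3 each). It differed by 0.95 (SE 0.066, adjusted p = 8.36e-07) against untreated and by -0.94 (SE 0.074, adjusted p = 1.68e-06) for TNC + TLR4i against TNC + vehicle. Ctse, an aspartic protease of endosomes, fell by 0.46 and rose by 0.61 in these comparisons. Ctsf fell by 0.25 in TNC + vehicle and Ctso rose by 0.28 with the inhibitor. The Ctsf call was lost without replicate 3 of TNC + vehicle or replicate 1 or 2 of untreated (adjusted p 0.0524 to 0.0741), and the Ctso call without replicate 1 or 3 of TNC + TLR4i or replicate 2 or 3 of TNC + vehicle (0.0546 to 0.0732). The Ctsf call was also lost with the mean over its probe sets, at -0.14 (adjusted p 0.0898).

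Glycosidases trim the sugar chains of glycoproteins and glycolipids from their ends, and Ctsa, cathepsin A, protects some of them from breakdown. Of these 8 members, 5 fell and 0 rose in TNC + vehicle, and 6 rose and 0 fell with the inhibitor. Man2b1, the lysosomal alpha-mannosidase, had 13.06, 12.95 and 13.02 in TNC + TLR4i arrays, 12.63, 12.46 and 12.47 in TNC + vehicle arrays and 12.98, 12.99 and 12.93 in untreated arrays. TNC + vehicle was the lowest group without overlap, at -0.45 (SE 0.071, adjusted p = 0.000646) against untreated and 0.49 (SE 0.073, adjusted p = 0.000367) for the inhibitor against vehicle. Its dimmer probe set, with a mean of 8.69, gave the larger differences of -1.16 and 1.17.

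Gusb, beta-glucuronidase, had 12.46, 12.40 and 12.50 in TNC + TLR4i arrays, 12.14, 11.96 and 11.99 in TNC + vehicle arrays and 12.48, 12.50 and 12.42 in untreated arrays. Gaa, the acid alpha-glucosidase that degrades glycogen, had 9.47, 9.58 and 9.56 in TNC + TLR4i arrays, 9.15, 9.19 and 9.12 in TNC + vehicle arrays and 9.55, 9.51 and 9.64 in untreated arrays. Both were lowest in TNC + vehicle without overlap. Gusb differed by -0.44 (SE 0.071, adjusted p = 0.000767) and 0.43 (SE 0.073, adjusted p = 0.000932), and Gaa by -0.42 (SE 0.067, adjusted p = 0.000675) and 0.38 (SE 0.067, adjusted p = 0.00106), in TNC + vehicle against untreated and in TNC + TLR4i against TNC + vehicle. Ctsa had 12.54, 12.50 and 12.58 in TNC + TLR4i arrays, 12.36, 12.18 and 12.18 in TNC + vehicle arrays and 12.49, 12.53 and 12.54 in untreated arrays. It fell by 0.28 (adjusted p 0.0135) and rose by 0.30 (adjusted p 0.00997), and the fall was lost without replicate 3 of TNC + vehicle (0.0528) or of untreated (0.0511). With the mean over its probe sets, both Ctsa calls were lost, at -0.16 (adjusted p 0.135) and 0.18 (adjusted p 0.0877).

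The partners that Ctsa protects are Glb1 and Neu1. Glb1, beta-galactosidase, fell by 0.28 and rose by 0.25, with adjusted p of 0.0222 and 0.0245. Its fall was lost without replicate 2 of TNC + vehicle or replicate 1 or 2 of untreated (0.0797 to 0.0901), and its rise without replicate 1 or 3 of TNC + TLR4i or replicate 2 of TNC + vehicle (0.068 to 0.0985). Neu1, the sialidase, did not pass at -0.06 and 0.22, although without replicate 3 of TNC + vehicle it rose by 0.27 with the inhibitor (adjusted p 0.0428). Hexa, the alpha subunit of beta-hexosaminidase, gave -0.18 against untreated (adjusted p 0.0644) and rose by 0.20 with the inhibitor (adjusted p 0.0464), a call lost without any 1 of the 6 arrays other than replicate 1 of TNC + vehicle (0.0916 to 0.127). Gla, alpha-galactosidase A, did not pass at -0.10 and 0.25, and its TNC + vehicle arrays were spread from 9.74 to 10.14. Without replicate 1 of that group, Gla rose by 0.37 with the inhibitor (adjusted p 0.00409).

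Other hydrolases and cofactors, 21 measured of 26 listed, had 14 fallen and 2 risen in TNC + vehicle, and 14 risen and 3 fallen with the inhibitor. The 3 became 1 without replicate 2 or 3 of TNC + TLR4i or of TNC + vehicle and 2 without replicate 1 of TNC + TLR4i, and the 2 risen in TNC + vehicle became 1 without replicate 2 or 3 of TNC + vehicle or replicate 1 or 3 of untreated. The largest fall was in Pla2g15, the lysosomal phospholipase A2, which averaged 11.29 ± 0.046 in TNC + TLR4i arrays, 9.89 ± 0.049 in TNC + vehicle arrays and 11.21 ± 0.072 in untreated arrays (SD, n = 3 each). It was 2.48-fold lower in TNC + vehicle than in untreated cells, -1.31 (SE 0.068, adjusted p = 9.47e-08), and 2.64-fold higher in TNC + TLR4i than in TNC + vehicle, 1.40 (SE 0.067, adjusted p = 2.13e-08). Sgsh, a sulfatase of heparan sulfate breakdown, came next at -1.22 and 1.35. Dnase2a, which digests DNA of engulfed cells, fell by 0.89 and rose by 0.49, and Galc, which acts on galactosylceramide, fell by 0.77 and rose by 0.80. Manba, the beta-mannosidase, rose by 0.78 with the inhibitor.

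Of the 5 membrane proteins among the members, 3 fell and 0 rose in TNC + vehicle, and 2 rose and 0 fell with the inhibitor. Mcoln1, the calcium channel TRPML1, had 9.38, 9.37 and 9.28 in TNC + TLR4i arrays, 8.89, 8.86 and 8.78 in TNC + vehicle arrays and 9.28, 9.34 and 9.34 in untreated arrays. TNC + vehicle was the lowest group without overlap, at -0.48 (SE 0.066, adjusted p = 0.000212) and, for TNC + TLR4i against TNC + vehicle, 0.50 (SE 0.068, adjusted p = 0.00016), and all 3 of its probe sets passed in both comparisons. Scarb2, which carries glucocerebrosidase to the lysosome, had 12.0001, 11.91 and 11.86 in TNC + TLR4i arrays, 11.43, 11.45 and 11.41 in TNC + vehicle arrays and 11.87, 11.83 and 11.89 in untreated arrays. It differed by -0.43 (SE 0.063, adjusted p = 0.00033) and 0.49 (SE 0.067, adjusted p = 0.00017), again with TNC + vehicle lowest and without overlap. The glycoproteins of the limiting membrane differed by less. Lamp2 fell by 0.22 (adjusted p 0.0225), a call lost without any 1 of the 6 arrays other than replicate 1 of TNC + vehicle (0.0545 to 0.0723) and not made by its 3 other probe sets, and Lamp1 gave -0.16 (adjusted p 0.0959). Cln3, a membrane protein lost in juvenile Batten disease, did not pass at -0.08 and 0.07.

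Other membrane proteins and transporters of the lysosome, 20 measured of 23 listed, had 14 fallen and 3 risen in TNC + vehicle, and 12 risen and 2 fallen with the inhibitor. The 14 became 9 without replicate 3 of TNC + vehicle or replicate 1 or 2 of untreated and 8 without replicate 3 of untreated, and the 12 became 8 without replicate 1 or 2 of TNC + TLR4i or replicate 3 of TNC + vehicle. Each left-out array gave a count of 8 to 13 in both. Ion channels and exchangers had the largest differences, in opposite directions. Tpcn1, a cation channel, averaged 9.31 ± 0.041 in TNC + TLR4i arrays, 7.86 ± 0.047 in TNC + vehicle arrays and 9.35 ± 0.094 in untreated arrays (SD, n = 3 each), which is -1.49 (SE 0.071, adjusted p = 5.02e-08) for TNC + vehicle against untreated and 1.45 (SE 0.066, adjusted p = 1.54e-08) for TNC + TLR4i against TNC + vehicle. Clcn7, which exchanges chloride for protons, averaged 9.02 ± 0.11 in TNC + TLR4i arrays, 10.19 ± 0.058 in TNC + vehicle arrays and 8.85 ± 0.093 in untreated arrays, rising by 1.34 and falling by 1.17. Mcoln2, a relative of Mcoln1, rose by 1.10 and fell by 1.16. Slc17a5, the sialic acid exporter, fell by 0.73 and rose by 0.75. Slc11a1, a metal ion transporter of phagosomes, was the only gene of the 6 lists that passed in TNC + TLR4i against untreated, at 0.43 (SE 0.068, adjusted p = 0.0135), and this call was lost without any 1 of the untreated arrays (0.0506 to 0.0561).

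**Figure D3:**
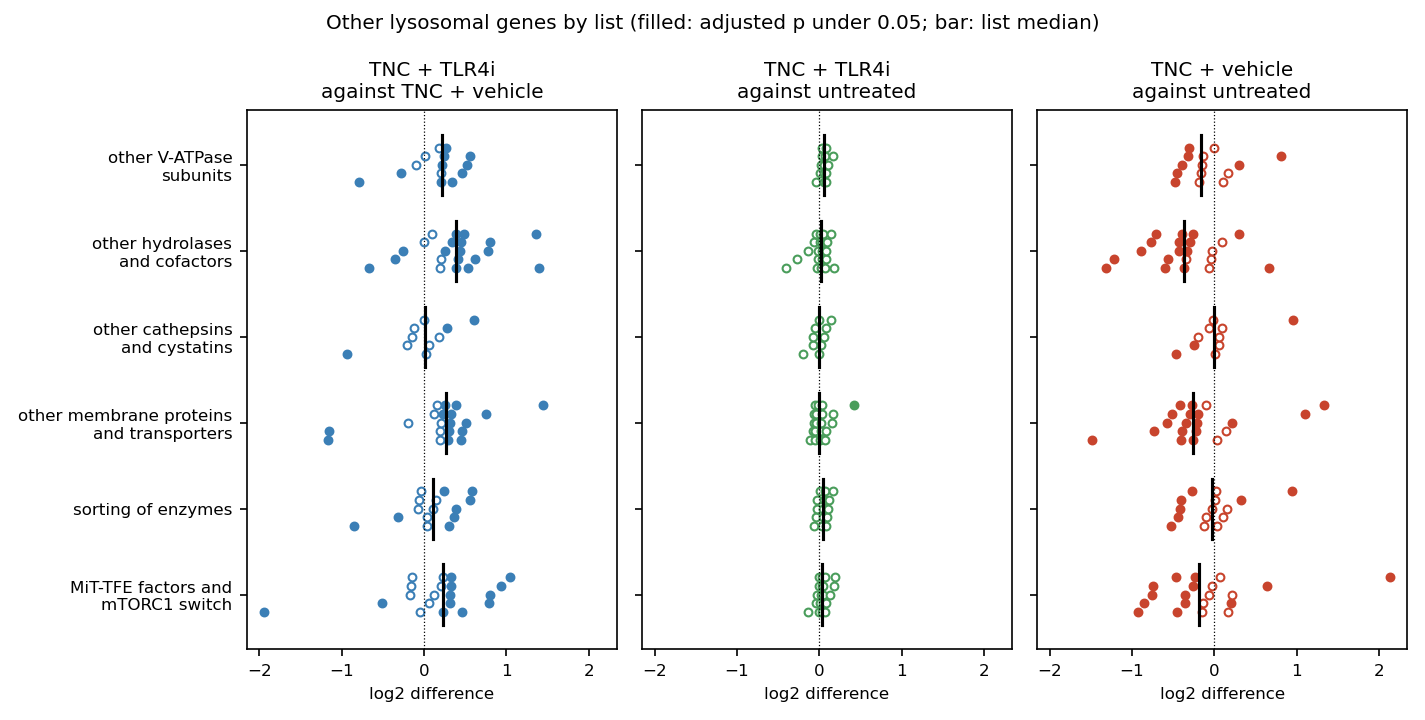
Differences on the log2 scale (horizontal axis) of the measured genes of 6 lists of other lysosomal genes, in the 3 comparisons. Each point is a gene, filled where its adjusted p was under 0.05, and the vertical bar is the median of the list. In the right panel, hydrolases (14 of 21 fallen) and membrane proteins (14 of 20) lie mostly left of 0, with Tfec (2.14) and Clcn7 (1.34) far to the right.

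Newly made hydrolases are tagged with mannose phosphate and carried to the lysosome by receptors and adaptors. Of 15 genes of this sorting, 5 fell and 2 rose in TNC + vehicle, beside 16% and 12.1% of all genes. With the inhibitor 6 rose and 2 fell, beside 17.1% and 11.4% of all genes. The list median was -0.03 in TNC + vehicle against untreated, with 8 differences negative and 7 positive, and 0.11 with the inhibitor. The genes named here had the largest differences among those that passed. Gnptab, a catalytic part of the enzyme that adds the tag, rose by 0.94 and fell by 0.85. Vps39 and Vps41, of the HOPS complex that tethers endosomes to lysosomes, fell by 0.53 and 0.42 and rose by 0.58 and 0.39. The adaptor Gga2 fell by 0.44 and rose by 0.56.

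Tfeb, the transcription factor among the members, had signals of 8.72, 8.71 and 8.77 in TNC + TLR4i arrays, 8.52, 8.44 and 8.42 in TNC + vehicle arrays and 8.55, 8.80 and 8.58 in untreated arrays. TNC + vehicle was lowest, but by -0.18 (SE 0.079, adjusted p = 0.135) against untreated it did not pass, and TNC + TLR4i was 1.21-fold higher than TNC + vehicle, 0.27 (SE 0.066, adjusted p = 0.0093). Array signals measure its mRNA and not its place in the cell. Its relatives and the switch that controls them were counted from 20 measured genes of 21 listed. In TNC + vehicle 10 fell and 3 rose, beside 16% and 12.1% of all genes. With the inhibitor 10 rose and 2 fell, beside 17.1% and 11.4% of all genes. With each array left out in turn, 8 to 10 fell and only 2 rose in TNC + vehicle, and 9 to 11 rose with the inhibitor. Tfec, a MiT-TFE factor found mainly in macrophages, averaged 8.46 ± 0.045 in TNC + TLR4i arrays, 10.41 ± 0.12 in TNC + vehicle arrays and 8.28 ± 0.059 in untreated arrays (SD, n = 3 each). TNC + vehicle exceeded untreated 4.39-fold, 2.14 (SE 0.076, adjusted p = 7.1e-09), and Tfec was 3.86-fold lower in TNC + TLR4i than in TNC + vehicle, -1.95 (SE 0.076, adjusted p = 3.87e-09). At 1.5-fold or more, 2 genes of the list rose in TNC + vehicle, Tfec among them, and 4 fell, beside 3.74% and 4.05% of all genes. Parts of the mTORC1 switch at the lysosomal surface were among those that fell. Rragd, a Rag GTPase, fell by 0.93, Fnip2, a partner of folliculin, by 0.86, and Lamtor4, of the complex that anchors the Rags, by 0.76, and they rose by 0.94, 1.04 and 0.80 with the inhibitor.

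The members whose probe sets gave the highest signals mostly did not pass, although signals of different probe sets do not rank genes by their mRNA. Of 9 members with a mean signal of 13 or more, a limit chosen after the values were seen, 1 passed in TNC + vehicle against untreated, and of the 25 below it 18 passed. Among all genes, 21.3% of the 108 at or above that signal passed and 28.2% of those below it. The 9 were Lamp1, Npc2, Psap, Hexa, Ctsb, Ctsc, Ctsd, Ctsl and Ctsz, Ctsc being the one that passed. Whether signals near the top of the scale report differences less fully was not tested. Over the 40 other probe sets of 24 members, 13 passed in the same direction as the one used in TNC + vehicle against untreated, 0 passed in the opposite direction, 7 did not pass where the one used did, 4 (of Ctsb, Ctsz and Npc2) passed where the one used did not, and for 16 neither passed. In TNC + TLR4i against TNC + vehicle the counts were 13, 0, 4, 7 (of Ctsb, Ctsz, Gla, Lamp2 and Npc2) and 16 in the same order.

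**Figure D4:**
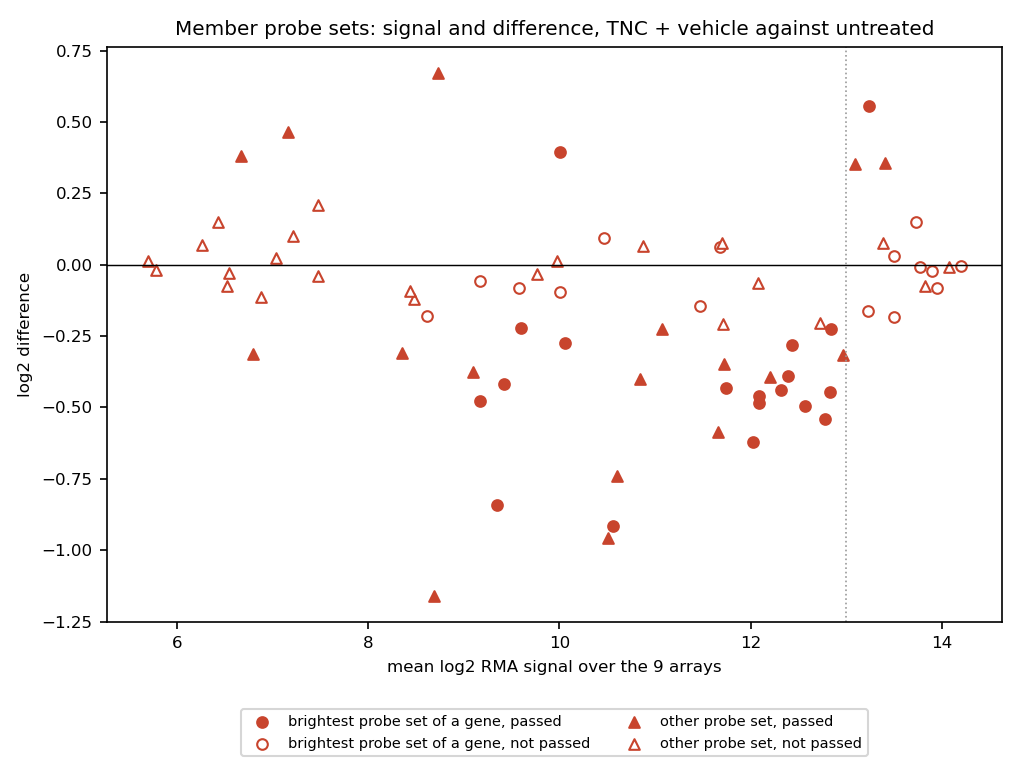
Difference on the log2 scale of TNC + vehicle against untreated (vertical axis) for every probe set of the 34 members, against its mean log2 RMA signal over the 9 arrays (horizontal axis). Circles are the probe sets used and triangles the other 40, filled where the adjusted p was under 0.05, and the dotted line marks a signal of 13. Most of the circles right of the line are open and near 0, with Ctsc at 0.55 as the exception.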

How the data were processed

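Total RNA of the 9 BMDM samples was hybridised to Affymetrix mouse arrays after a 3′ amplification and labelling kit. The authors normalized the arrays by RMA in Chipster 3.8.0 and deposited log2 values, 1 for each probe set on each array. The method corrects background, gives all arrays the same distribution and summarises the probes of a set. It compresses differences of dim probe sets and would hide a change in total RNA, and no detection call was used. Values ran from 5.44 to 14.69, and the number of arrays limits their precision.

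Of 45101 probe sets, 64 controls were left out. The platform annotation gave 34945 of the other 45037 a single gene, 932 several genes and 9160 none. A gene was given by its brightest single-gene probe set over the 9 arrays. Groups, taken from the sample titles, were compared by lmFit and eBayes of limma 3.58.1 (R 4.3.3), two-sided, on the 6 arrays of both groups, with Benjamini-Hochberg adjustment over 45037 probe sets. The model was tested on simulated data. Promoters came from RefSeq (GRCm38.p6).

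The members and lists were chosen with earlier results of these data known. Members with a passing change of at least 1.5-fold in any comparison, and the next 10 by size per comparison, were to be given with all array values, and up to 4 genes per list and comparison were to be named. Markers, Tfeb, Ctsb and remaining members are named beside them as context. Alternatives were each array left out in turn, stricter thresholds, averaging all probe sets of a gene, array weights, a trended and robust prior, cyclic loess, median centring, removal of dim probe sets, the replicate number as a block, and 1 fit over 9 arrays.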

Additional observations from a re-analysis of the deposited data

How the results depend on the processing

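No called difference of a member changed sign under any alternative run. Requiring at least 1.5-fold left 0 risen and 3 fallen in TNC + vehicle against untreated, 5 risen and 1 fallen in TNC + TLR4i against TNC + vehicle, and 0 risen in TNC + TLR4i against untreated. The last comparison also had 0 risen in 1 fit over all 9 arrays. With each array left out in turn, 14 to 17 members fell and 2 rose in TNC + vehicle against untreated, 15 to 19 rose and 2 fell in TNC + TLR4i against TNC + vehicle, and 0 to 1 rose and 0 fell in TNC + TLR4i against untreated. Cyclic loess moved the median of the members to -0.14 in TNC + vehicle against untreated, from -0.20, and to 0.16 in TNC + TLR4i against TNC + vehicle, from 0.25. It gave 13 fallen and 3 risen in TNC + vehicle against untreated, and 14 risen and 3 fallen in TNC + TLR4i against TNC + vehicle, with Smpd1, Glb1 and Ctsa lost in both, Lamp2 also lost against untreated and Hexa against vehicle. Of the 19 calls in TNC + vehicle against untreated, 14 held under all alternatives other than the stricter thresholds, and of the 20 in TNC + TLR4i against TNC + vehicle, 15. Without single arrays, Atp6v1a differed by -0.73 to -0.54 in TNC + vehicle against untreated and Lgmn by 0.57 to 0.67 in TNC + TLR4i against TNC + vehicle, so that each crossed 1.5-fold.

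The replicate numbers were not taken to pair the arrays. Deviations of same-numbered arrays from their group means correlated at -0.09 to 0.09, and those of differently numbered arrays at -0.12 to 0.08. With 3 arrays per mean, these ranges cannot decide whether same-numbered arrays belong together. With the number as a replicate block, 17 fell and 2 rose in TNC + vehicle against untreated, 17 rose and 2 fell in TNC + TLR4i against TNC + vehicle (Hexa was lost, adjusted p 0.0688), and 1 rose and 0 fell in TNC + TLR4i against untreated.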
